A study of Homo sapiens with 4 samples.

Results

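The 10 genes described here encode actin-binding and motor proteins of the actin stress fibre, and not actin itself: the tropomyosins TPM1, TPM2, TPM3 and TPM4, the actinins ACTN1 and ACTN4, the nonmuscle myosin heavy chains MYH9 and MYH10, the myosin light chain MYL9, and caldesmon, CALD1. They were taken as a named set, 10 of 20163 protein-coding genes, by their function but with earlier results of these data known, and every CUT&RUN peak that touched a gene body or the 20 kb on either side of it was kept. This gave 18 of the 24212 peaks in the iBRG1 list (0.0743%) and 23 of the 25371 in the i∆HSA list (0.0907%). CUT&RUN uses an antibody to bring a nuclease to a chromatin protein, so that the DNA under the protein is cut free and sequenced. SW-13 is an adrenocortical carcinoma line in which neither BRG1 nor BRM, the alternative motor subunits of SWI/SNF, a complex that moves nucleosomes, is expressed. The iBRG1 cells carry a doxycycline-inducible transgene for full-length BRG1 with a V5 tag, the i∆HSA cells carry the same for BRG1 with its HSA domain deleted, and individual clones of each stable line were used. Both received doxycycline for 24 h, V5 was the antibody target in all 4 samples (2 biological replicates per construct), and each construct has 1 deposited peak list. No value below therefore has a replicate error, no test between the constructs was possible, and counts carry intervals for counting error only. The depth reached by each library is unknown, and the files hold no expression values with which the cell line could be checked against markers.

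A stress fibre is a contractile bundle of actin filaments. Tropomyosins lie along the filaments and set which proteins may bind them, actinins cross-link neighbouring filaments of opposite polarity, and nonmuscle myosin II, a motor of heavy and light chains, slides the filaments past each other. Caldesmon binds actin, tropomyosin and myosin and restrains the motor. Many of these genes are known targets of SRF, the transcription factor that binds the CArG box and is switched on by the actin-sensing coactivator MRTFA.

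iBRG1 peaks were found at 8 of the 10 genes and i∆HSA peaks at 7. Both lists had peaks at TPM1, TPM3, ACTN1, ACTN4, MYH9 and CALD1, the iBRG1 list alone at TPM2 and MYH10, and the i∆HSA list alone at TPM4. MYL9 had none in either list. Among all 20163 protein-coding genes, 57.9% had an iBRG1 peak within the same distance and 64.6% an i∆HSA peak, and both values lie inside the counting intervals of the 10 genes (95% Wilson interval 49.0 to 94.3% for iBRG1 and 39.7 to 89.2% for i∆HSA). Since a long gene has more room for a peak, density was also compared. Over the 1.20 Mb of these windows there were 1.497 iBRG1 peaks per 100 kb (exact 95% Poisson interval 0.887 to 2.37), where the windows of all protein-coding genes together held 1.02. For i∆HSA the density was 1.91 per 100 kb (1.21 to 2.87), an interval that overlaps that of iBRG1. Protein-coding windows held 1.101, which is below the i∆HSA interval. TPM4 and ACTN4, with 3 and 4 of these i∆HSA peaks, lie on chromosome 19. That chromosome had 4.13% of all i∆HSA and 2.28% of all iBRG1 peaks, and its part in this density was not tested. Per gene, the median density was 1.31 (iBRG1) and 1.40 (i∆HSA) peaks per 100 kb, against 0.884 and 1.26 over all protein-coding genes. Of the 23 i∆HSA peaks, 20 had their nearest protein-coding start at a gene of this set, and no density was computed for those alone.

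**Figure D1:**
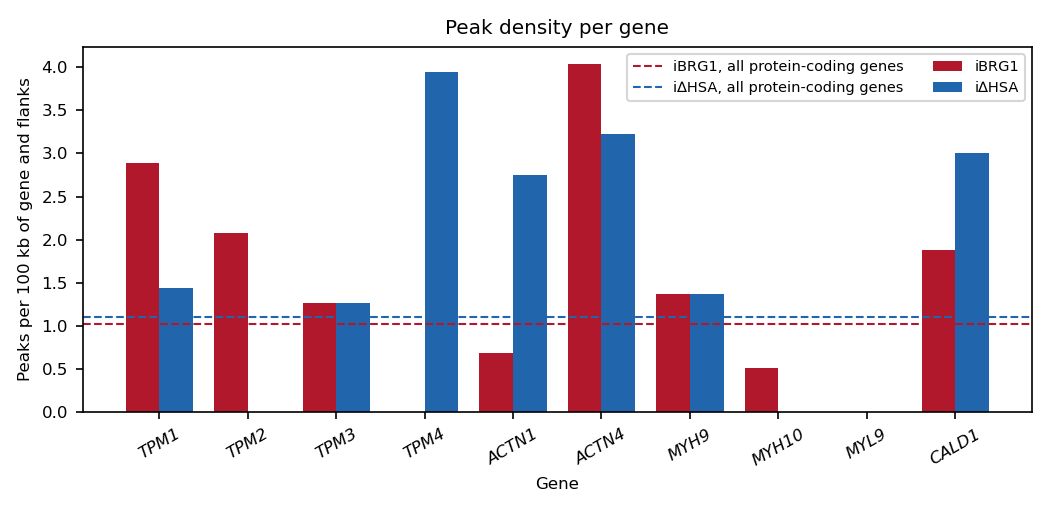
Peaks per 100 kb of gene body and flanks for each of the 10 genes (red, iBRG1; blue, i∆HSA), with dashed lines at the density over all protein-coding genes (1.02 and 1.101). ACTN4 is high in both lists, at 4.03 and 3.23, TPM4 is at 3.95 in the i∆HSA list and 0 in the iBRG1 list, and MYL9 is at 0 in both.

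The deposited scores are whole numbers on a scale that the sources used here do not give, so they were read only within a list. At the 10 genes the iBRG1 scores ran from 0 to 7 with a median of 2, which is also the median of the whole list. In all, 2 of the 18 reached 5 (11.1%), while 27.2% of all iBRG1 peaks did. The i∆HSA scores ran from 1 to 57 with a median of 4, again the median of the list, and 10 of 23 reached 5 (43.5%, against 41.1% of the list). A peak was called shared where at least 1 of its bases lay in a peak of the other construct. Of the iBRG1 peaks 4 were shared (22.2%, 95% Wilson interval 9.001 to 45.2) and of the i∆HSA peaks 4 (17.4%, 6.98 to 37.1), against 20.5% and 19.6% over the whole lists. When both lists were held to a score of at least 5, 1 peak of each was shared. The shared peaks scored 1 to 7 in the iBRG1 list (median 3) and 5 to 20 in the i∆HSA list (median 10), and the list-only peaks 0 to 6 (median 2) and 1 to 57 (median 3). The shared peaks lay at ACTN4, MYH9 and CALD1, so 3 of 10 genes had one, where 22.9% of protein-coding genes did (Wilson interval for the 10 genes 10.8 to 60.3%).

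**Figure D2:**
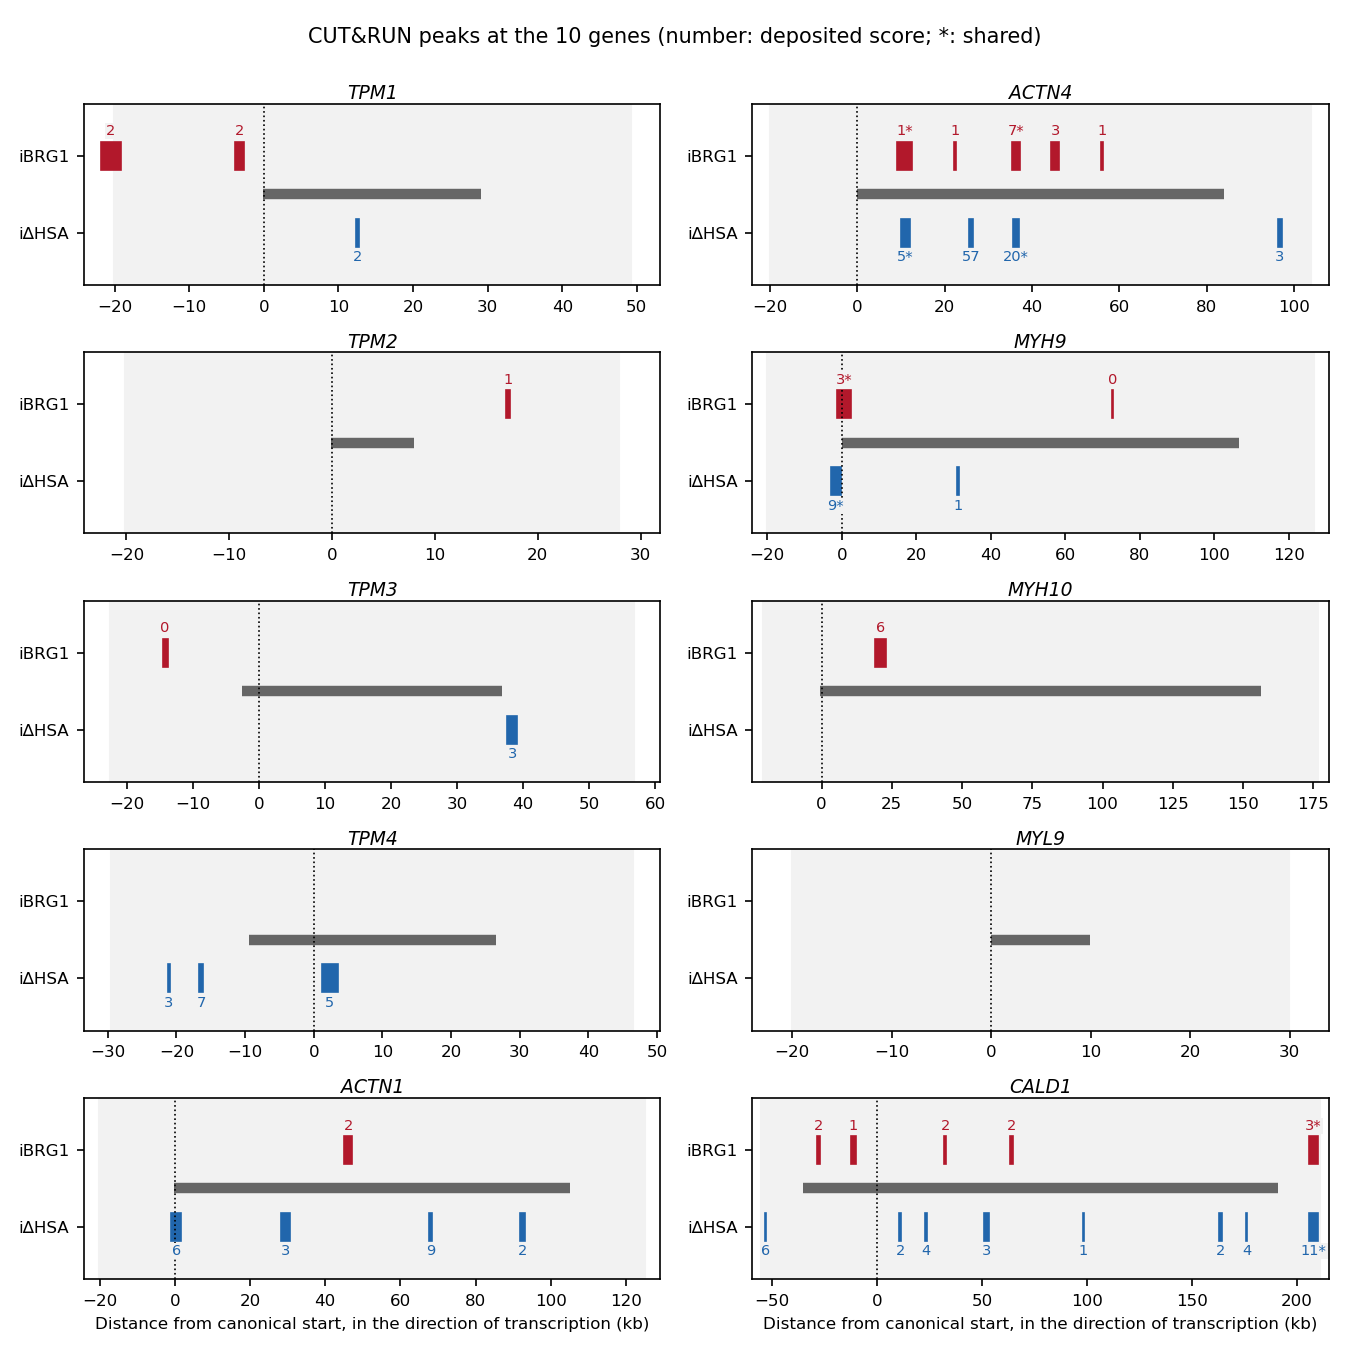
Each panel shows 1 gene as a grey bar from its first to its last annotated base, with the 20 kb flanks shaded and distance in kb from the start of its canonical transcript (dotted line) in the direction of transcription. Boxes are iBRG1 peaks (red, above) and i∆HSA peaks (blue, below), drawn to width, with the deposited score beside each and an asterisk on shared peaks, which appear at ACTN4, MYH9 and CALD1 only.

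The 4 tropomyosin genes had 4 iBRG1 and 5 i∆HSA peaks, and none was shared. Over the whole lists only 20.5% (iBRG1) and 19.6% (i∆HSA) were, so these few peaks do not set the tropomyosins apart. No iBRG1 peak lay inside a tropomyosin gene body, while 2 i∆HSA peaks did. TPM1 (ENSG00000140416, chr15:63334819-63364114, plus strand) encodes a tropomyosin of muscle and fibroblasts. Its iBRG1 peaks lay upstream at chr15:63313109-63315754 and chr15:63331114-63332223, both with a score of 2, and the second ended 2596 bp before the gene. Its i∆HSA peak, chr15:63347294-63347680 with a score of 2, was in intron 2 of the canonical transcript, 15071 bp from the nearest iBRG1 peak. Its midpoint was 441 bp before the start of a retained-intron transcript, and it touched the promoter of no protein-coding one.

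At TPM2 (ENSG00000198467, chr9:35681989-35690053, minus strand), which encodes beta-tropomyosin, the iBRG1 list had a peak of score 1 at chr9:35672651-35673052. That peak lay 8937 bp past the end of TPM2, inside ARHGEF39, and its midpoint was 1074 bp from a start of CA9. The nearest i∆HSA peak was 22647 bp from the gene and so was outside the window. TPM3 (ENSG00000143549, chr1:154127784-154167124, minus strand), a tropomyosin of slow muscle and most other cells, had 1 peak in each list, at opposite ends. The iBRG1 peak (chr1:154178458-154179219, score 0, the lowest of its list) had its midpoint 29 bp from a start of CFAP141, 11334 bp upstream of TPM3. The i∆HSA peak (chr1:154125473-154127095, score 3) lay 689 bp beyond the end of TPM3 and within NUP210L. Each of these 3 peaks was thus nearer to the start of another protein-coding gene.

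TPM4 (ENSG00000167460, chr19:16177831-16213812, plus strand), a tropomyosin of nonmuscle cells, had i∆HSA peaks alone. Upstream peaks stood at chr19:16166061-16166333 (score 3) and chr19:16170621-16171148 (score 7). The third, chr19:16188444-16190817 with a score of 5, was in intron 1 of the canonical transcript. It covered the start of a shorter annotated protein-coding transcript, and its midpoint was 2.33 kb past the canonical start. The nearest iBRG1 peak to the TPM4 body was 94356 bp away, the farthest for any of the 10 genes. Chromosome 19, which also holds ACTN4, had 2.28% of all iBRG1 peaks and 4.13% of all i∆HSA peaks, a ratio of 1.82, and the part of that difference in the TPM4 result was not tested. The bases at the middle of the TPM4 promoter peak, plus strand of GRCh37 at chr19:16189540-16189720, are shown because the nearest iBRG1 peak was 117351 bp from this promoter peak. They overlap an exon of a transcript other than the canonical one and hold none of the 4 motifs described below.
TPM4 i∆HSA promoter peak: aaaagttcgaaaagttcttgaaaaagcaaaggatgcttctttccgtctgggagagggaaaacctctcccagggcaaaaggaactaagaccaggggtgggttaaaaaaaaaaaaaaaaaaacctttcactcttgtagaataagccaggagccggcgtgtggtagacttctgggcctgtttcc

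The actinins had the most peaks per length in the i∆HSA list after caldesmon and the most in the iBRG1 list. Together ACTN1 and ACTN4 had 6 iBRG1 peaks (2.23 per 100 kb, exact Poisson interval 0.818 to 4.85) and 8 i∆HSA peaks (2.97 per 100 kb, 1.28 to 5.85). The first interval includes the density over all protein-coding windows (1.02), and the second lies above it (1.101). The intervals of the constructs overlap. The 8 i∆HSA peaks include the peak beyond ACTN4 at a start of CAPN12, and no density was computed without it. ACTN4 is on chromosome 19, which had a larger share of all i∆HSA than of all iBRG1 peaks, and the part of this was not tested. Both genes encode nonmuscle alpha-actinins, of which ACTN1 is typical of stress fibres and focal adhesions and ACTN4 also enters the nucleus.

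ACTN1 (ENSG00000072110, chr14:69340845-69446157, minus strand) differed between the lists in number and place. The single iBRG1 peak, chr14:69398812-69400910 with a score of 2, was in intron 1, 46.2 kb from the canonical start. The 4 i∆HSA peaks ran along the gene. The one at the main promoter, chr14:69444223-69447065 with a score of 6, covered the canonical start and reached into the divergent noncoding gene ACTN1-DT. Others were at chr14:69415327-69417625 (intron 1, score 3), chr14:69377696-69378439 (intron 4, score 9) and chr14:69352905-69354188 (intron 11, score 2). These last 2 touched the 1 kb around starts of retained-intron transcripts and of no protein-coding one. None of the 4 overlapped the iBRG1 peak, and the closest was 14417 bp from it. Most peaks of either list were likewise not shared (20.5% of iBRG1 and 19.6% of i∆HSA peaks were). The sequence near the middle of the ACTN1 promoter peak (chr14:69445562-69445742, plus strand, GC content 71.8%) overlaps the first coding exon and is shown for its adjoining GC boxes, GGGCGG, in capitals. Counting the 100 bp on each side of the midpoint, this peak held 3 of them.
ACTN1 i∆HSA promoter peak: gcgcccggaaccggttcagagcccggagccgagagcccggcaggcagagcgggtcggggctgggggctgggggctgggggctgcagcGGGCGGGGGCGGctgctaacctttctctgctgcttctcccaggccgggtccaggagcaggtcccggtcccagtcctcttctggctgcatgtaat

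ACTN4 (ENSG00000130402, chr19:39138289-39222229, plus strand) had the highest density of the set in the iBRG1 list, 4.03 peaks per 100 kb, a density that 95.1% of protein-coding genes fell below. In the i∆HSA list it had 3.23, above 86.7% of genes. It also held 2 of the 4 shared pairs, both in the long first intron. At the first, the iBRG1 peak chr19:39147492-39150911 (score 1) contained the whole of the i∆HSA peak chr19:39148248-39150504 (score 5). At the second, the iBRG1 peak chr19:39173779-39175525 (score 7) contained the whole of the i∆HSA peak chr19:39174027-39175370 (score 20), and their midpoints were 46 bp apart. This second site carried the highest iBRG1 score of the set and the highest i∆HSA score among its shared peaks, and 17.99% of the iBRG1 list and 7.88% of the i∆HSA list scored as high or higher. It lay 36.4 kb inside the gene and over the noncoding gene ENSG00000267375. Its middle is printed as the highest-scoring site found with both constructs, and no motif was found in it.
ACTN4 shared intron 1 site, chr19:39174562-39174742, plus strand: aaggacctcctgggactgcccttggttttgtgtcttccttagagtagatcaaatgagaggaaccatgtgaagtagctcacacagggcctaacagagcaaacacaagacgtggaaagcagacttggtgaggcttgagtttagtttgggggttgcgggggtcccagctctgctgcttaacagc

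Other ACTN4 peaks belonged to 1 list. In the iBRG1 list these were chr19:39160483-39160814 (score 1) and chr19:39182742-39184453 (score 3) in intron 1 and chr19:39194219-39194531 (score 1) in intron 3. The i∆HSA list had one 12316 bp beyond the gene, chr19:39234545-39235568 with a score of 3, whose midpoint was 58 bp from a start of CAPN12. It also had chr19:39163983-39164714 in intron 1, with a score of 57, the highest at any of the 10 genes; only 471 i∆HSA peaks (1.86%) scored as high. That peak had a GC content of 26.9%. Of the i∆HSA peaks with scores of at least 57, 49.04% had a GC content under 30%, against 13.7% of the whole i∆HSA list and 5.67% of the iBRG1 list. At the 10 genes, 2 i∆HSA peaks and 0 iBRG1 peaks were under 30%, the other being at CALD1. The part of base composition in these scores was not tested.

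**Figure D3:**
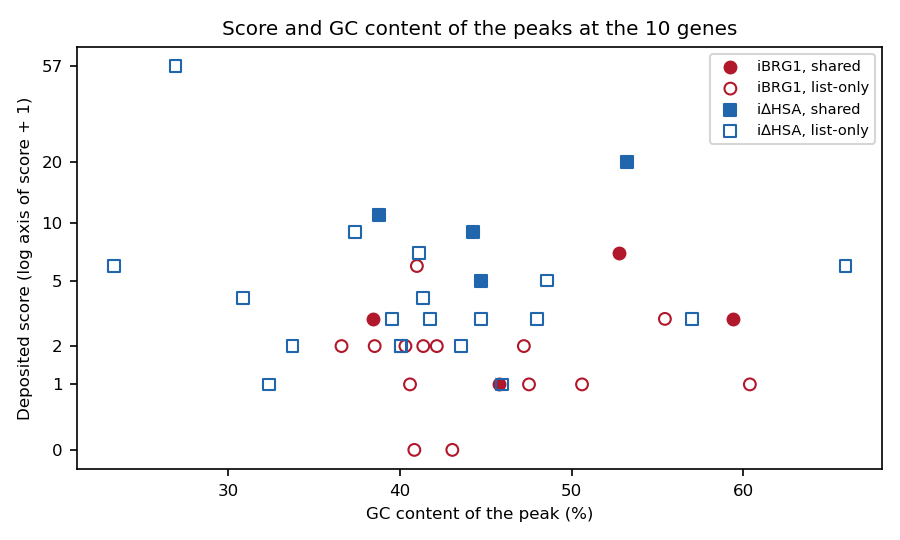
GC content (%) and deposited score (log axis of score + 1) of the 18 iBRG1 peaks (red circles) and 23 i∆HSA peaks (blue squares) at the 10 genes, filled where shared. The highest score, 57, belongs to a list-only i∆HSA peak at 26.9% GC, while the shared peaks have GC contents from 38.4% to 59.4%.

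The 3 myosin genes had 3 iBRG1 peaks (0.762 per 100 kb, exact Poisson interval 0.157 to 2.23) and 2 i∆HSA peaks (0.508 per 100 kb, 0.0615 to 1.83) over 393.9 kb, and both intervals include the densities over all protein-coding windows (1.02 and 1.101). MYH9 (ENSG00000100345, chr22:36677326-36784055, minus strand) encodes the heavy chain of nonmuscle myosin IIA, the main motor of stress fibres. Of the 10 genes it alone had a peak of each construct at its promoter. The iBRG1 peak chr22:36781598-36785387 (score 3) covered the canonical start and ran on into the first intron. The i∆HSA peak chr22:36784311-36786949 (score 9) stopped 256 bp short of the gene and lay over the divergent noncoding gene MYH9-DT. They had 1077 bp in common, 28.4% of the iBRG1 peak and 40.8% of the i∆HSA peak, and their midpoints were 2138 bp apart. The pair is therefore not counted as shared when 50% of each peak must be covered. The remaining MYH9 peaks were list-only with low scores, an iBRG1 peak in intron 12 (chr22:36711260-36711548, score 0) and an i∆HSA peak in intron 1 (chr22:36752656-36753147, score 1). Chromosome 22 had 0.764% of all iBRG1 and 1.13% of all i∆HSA peaks. The middle of the iBRG1 promoter peak, in the first intron, is printed with its GC box in capitals; its GC content is 76.8%, and it does not lie under the i∆HSA peak.
MYH9 iBRG1 promoter peak, chr22:36783418-36783598, plus strand: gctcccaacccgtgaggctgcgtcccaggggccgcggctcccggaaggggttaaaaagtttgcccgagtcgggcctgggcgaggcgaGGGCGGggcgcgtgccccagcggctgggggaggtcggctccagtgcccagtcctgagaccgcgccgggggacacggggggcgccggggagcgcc

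MYH10 (ENSG00000133026, chr17:8377525-8534694, minus strand) encodes the heavy chain of nonmuscle myosin IIB. Its body is longer than that of MYH9, yet it had 1 peak, from iBRG1, at chr17:8511244-8514962 in intron 2 with a score of 6. This was the highest-scoring list-only iBRG1 peak of the set, and 21.7% of the list scored as high. It lay 20.9 kb inside the gene, 41026 bp from any i∆HSA peak. The closest i∆HSA peak to the MYH10 body was 21294 bp away, just outside the window. None of the 4 motifs described below was found within 100 bp of its midpoint.

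MYL9 (ENSG00000101335, chr20:35169900-35179850, plus strand) encodes a regulatory light chain whose phosphorylation starts contraction in smooth muscle and stress fibres. It had no peak in its body or within 20 kb. An i∆HSA peak with a score of 5 (chr20:35199874-35201771) began 20024 bp from the gene, 24 bp too far to be counted, and the nearest iBRG1 peak was 53853 bp away with a score of 5. At the other edge of the rule, the farthest peak kept was the upstream iBRG1 peak of TPM1, which ended 19065 bp from that gene.

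CALD1 (ENSG00000122786, chr7:134429003-134655480, plus strand), whose smooth muscle and nonmuscle forms come from separate promoters and splicing, is the longest of the genes. It had 5 iBRG1 peaks (1.88 per 100 kb, exact Poisson interval 0.609 to 4.38) and 8 i∆HSA peaks (3.002 per 100 kb, 1.296 to 5.92). As at the actinins, the first interval includes the density over all protein-coding windows (1.02) and the second lies above it (1.101). The intervals of the constructs overlap here too. The 8 i∆HSA peaks include the peak at the AGBL3 promoter described next, and no density was computed without it. A single pair was shared, chr7:134669888-134674444 in the iBRG1 list (score 3) and chr7:134670054-134674461 in the i∆HSA list (score 11). These had 4391 bp in common and began 14408 and 14574 bp past the end of CALD1, at the promoter of AGBL3. Inside CALD1 itself, 4 iBRG1 and 6 i∆HSA peaks lay apart from each other. Over the whole lists only 20.5% and 19.6% were shared, so this does not set CALD1 apart. The iBRG1 peaks were chr7:134435690-134437361 (score 2) and chr7:134451995-134454207 (score 1), between the most upstream start and the canonical one, and chr7:134496174-134497433 (score 2) and chr7:134527900-134529236 (score 2) in intron 1. The last of these covered the start of another protein-coding transcript, 64.2 kb from the canonical start, and was the only promoter peak of CALD1. The i∆HSA peaks stood at chr7:134475062-134475878 (score 2), chr7:134487031-134488035 (score 4) and chr7:134515488-134517872 (score 3) in intron 1. Further along were chr7:134562367-134562842 in intron 3 (score 1), chr7:134627055-134628572 in intron 7 (score 2) and chr7:134640179-134640768 in intron 9 (score 4). All 3 of these later i∆HSA peaks lay beyond the last iBRG1 peak inside the gene. The upstream i∆HSA peak, chr7:134410889-134411424 with a score of 6, had a GC content of 23.3%, the lowest of the set, and an iBRG1 peak lay 3422 bp from it, outside the window.

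Promoters, taken as the 1 kb on each side of any annotated transcript start, were next compared. iBRG1 had a promoter peak at 2 of the 10 genes, MYH9 and CALD1, where 18.2% of protein-coding genes had one (Wilson interval for the 10 genes 5.67 to 50.98%). i∆HSA had a promoter peak at 4, TPM1, TPM4, ACTN1 and MYH9, where 20.9% did (16.8 to 68.7%). Some of these genes have many annotated starts (34 at TPM1, 35 at TPM4 and 31 at ACTN1), and the shares do not allow for their number. When only starts of protein-coding transcripts were counted, TPM1 dropped out and 3 remained for i∆HSA. Among peaks with a score of at least 5, an iBRG1 promoter peak was at 0 of the 10 genes and an i∆HSA promoter peak at 3. Canonical starts were covered at MYH9 by iBRG1 and at ACTN1 by i∆HSA. Most peaks were elsewhere. By midpoint, and with promoter peaks counted too, 11 iBRG1 and 16 i∆HSA peaks were in introns of the canonical transcript. Of these 8 and 10 were in the first intron, among them the MYH9 and ACTN1 peaks over canonical starts. There were 0 in its exons. Outside the gene bodies there were 5 iBRG1 and 7 i∆HSA peaks. Promoters of other genes alone were touched by 5 iBRG1 and 3 i∆HSA peaks. Such places were not counted over the whole lists, so these counts do not set the 10 genes apart from other genes. The distance from a list-only iBRG1 peak to the closest i∆HSA peak had a median of 14.7 kb and a minimum of 3.169 kb. For list-only i∆HSA peaks the median was 29.1 kb, and over the whole lists these medians were 32.2 and 32.6 kb.

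Sequence motifs were then looked for within 100 bp of the peak midpoints, on either strand. The patterns were AP-1 (TGACTCA or TGAGTCA), TEAD (GGAATGT or GGAATGC), the CArG box and the GC box (GGGCGG). Each pattern was counted separately, whether or not its end bases also belonged to a match of another. AP-1 was at 0 of 18 iBRG1 peaks, where 8.89% of all iBRG1 peaks had it, and at 1 of 23 i∆HSA peaks (4.35%), where 6.18% of the list had it. TEAD was at 0 peaks of either list, against 6.63% and 5.203% of the lists. The CArG box was at 0, against 1.21% and 1.05% of the lists. The GC box was at 2 iBRG1 peaks, in the MYH9 promoter and in intron 3 of ACTN4 (11.1%, list 4.63%), and at 1 i∆HSA peak, the ACTN1 promoter (4.35%, list 5.49%). With so few peaks a share of 0 says little, and it describes only these windows. Within 250 bp of the midpoint, AP-1 was at 2 iBRG1 peaks (11.1%, list 19.6%) and 3 i∆HSA peaks (13.04%, list 13.9%). Among them were both peaks of the shared ACTN4 site printed above and the iBRG1 promoter peak of MYH9. In that wider window the CArG box was at 2 i∆HSA peaks (8.696%, list 2.67%), the TPM4 promoter peak and the CALD1 peak with AP-1, and at 0 iBRG1 peaks (list 3.24%). TEAD was then at 2 iBRG1 peaks (11.1%, list 15.6%), the shared ACTN4 site and the intron 12 peak of MYH9, and at 1 i∆HSA peak (4.35%, list 12.6%), in intron 1 of CALD1. The GC box was at 4 iBRG1 peaks (22.2%, list 9.35%), of which 2 were at ACTN4 and the others at ACTN1 and MYH9, and at 3 i∆HSA peaks (13.04%, list 10.5%), of which 2 were at ACTN4 and 1 at ACTN1. The AP-1 match lies in intron 1 of CALD1, in the i∆HSA peak with a score of 2 at chr7:134475062-134475878, and is printed in capitals; it was picked after the search.
CALD1 i∆HSA peak with AP-1, chr7:134475451-134475631, plus strand: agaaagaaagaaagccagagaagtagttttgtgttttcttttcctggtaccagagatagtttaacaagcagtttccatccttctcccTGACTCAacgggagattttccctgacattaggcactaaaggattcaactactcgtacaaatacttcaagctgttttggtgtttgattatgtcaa

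Other genes of the actomyosin system were counted in the same way. All 45 listed genes, which cover actins, other myosin chains, kinases and phosphatases of myosin, further cross-linkers, focal adhesion proteins, calponins and SRF with its coactivators, were found in the annotation. iBRG1 peaks were at 34 of the 45 (75.6%, Wilson interval 61.3 to 85.8) and i∆HSA peaks at 41 (91.1%, 79.3 to 96.5), each above the 57.9% and 64.6% of protein-coding genes. These shares do not allow for gene length, and neighbours such as MYL12A and MYL12B could count the same peak. The windows of the 45 genes held 1.62 iBRG1 and 1.78 i∆HSA peaks per 100 kb, against 1.02 and 1.101 over all protein-coding windows. Promoter peaks were at 19 for iBRG1 (42.2%, Wilson interval 29.0 to 56.7) and at 14 for i∆HSA (31.1%, 19.5 to 45.7). Among all protein-coding genes 18.2% and 20.9% had one, and the i∆HSA interval includes its value. A gene with many annotated starts has more room for a promoter peak, and the promoter shares do not allow for this. A shared peak was at 20 genes in the iBRG1 list (44.4%, 30.9 to 58.8) and at 21 in the i∆HSA list. By the iBRG1 list, 22.9% of all protein-coding genes had one. The 45 genes had 24 shared among 90 peaks in the iBRG1 list (26.7%) and 24 among 99 in the i∆HSA list (24.2%).

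**Figure D4:**
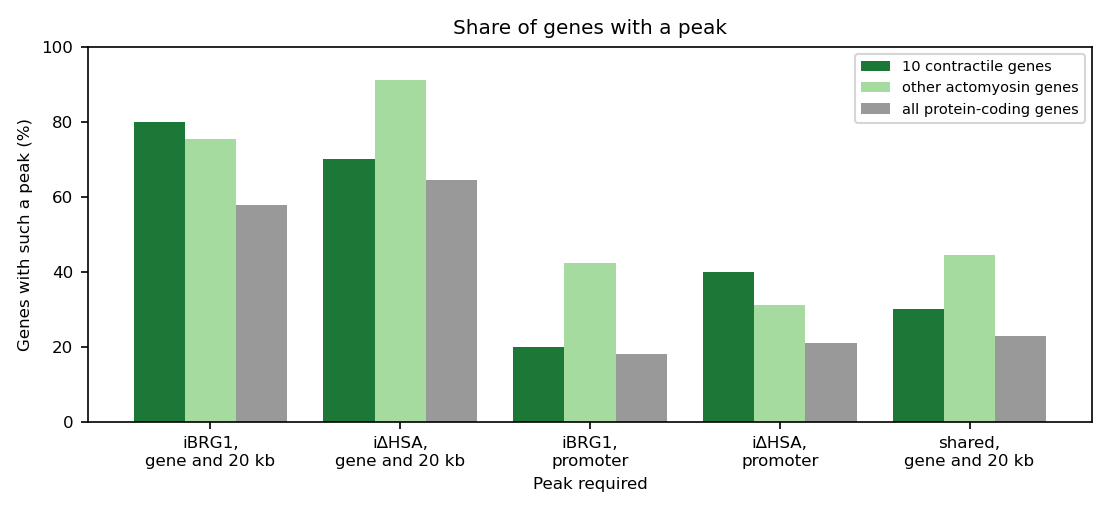
Percentage of genes with a peak of each kind among the 10 contractile genes (dark green), the 45 other actomyosin genes (light green) and all protein-coding genes (grey). An iBRG1 promoter peak is at 20% of the 10 genes (Wilson interval 5.67 to 50.98), 42.2% of the 45 (29.0 to 56.7) and 18.2% of all genes. For i∆HSA these are 40% (16.8 to 68.7), 31.1% (19.5 to 45.7) and 20.9%. For each construct the intervals of the 10 and the 45 genes overlap. All are counted without a minimum score, and none allows for gene length or the number of transcript starts.

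The highest iBRG1 scores at those 45 genes, 24 to 42, were above the 7 reached at the 10 genes, while the highest i∆HSA score, 47, was below the 57 of the ACTN4 peak. The 45 genes had more peaks (90 iBRG1 and 99 i∆HSA, against 18 and 23), and more peaks leave more room for a high score. MRTFA, the SRF coactivator released by actin assembly, had the top score in both lists, at a shared site inside the gene (chr22:40894550-40895971, score 42, in the iBRG1 list and chr22:40894008-40896063, score 47, in the i∆HSA list). Of its peaks, 4 of 5 iBRG1 and 4 of 7 i∆HSA peaks were shared, against 20.5% and 19.6% of the whole lists. MRTFA was named for its score, as the highest of the 45 genes. VCL, which encodes the focal adhesion protein vinculin, followed in the iBRG1 list with a shared peak inside the gene (chr10:75837384-75840574, score 33). MYL12A, a nonmuscle relative of MYL9, had a shared promoter peak with scores of 24 (iBRG1) and 13 (i∆HSA), which also fell in the window of its neighbour MYL12B. In the i∆HSA list the next were PPP1R12A, the targeting subunit of myosin phosphatase (chr12:80291108-80293544, score 44, list-only), and ROCK2, a kinase that raises myosin light chain phosphorylation (chr2:11343134-11344535, score 34, shared).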

How the data were processed

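The data were CUT&RUN peaks of V5-tagged BRG1 (iBRG1) and of BRG1 without the HSA domain (i∆HSA) in SW-13 cells, grouped by sample title. The study's methods state that the authors trimmed adapters (Cutadapt), aligned reads (Bowtie2), de-duplicated them (Picard) and used MACS2 as the peak caller (2.2 in the submitters' processing notes). They then dropped peaks of negative controls and set a minimum score. The deposited values were 1 list of peaks per construct with a whole-number score, whose scale is not given. That minimum (5) does not hold in the score column as deposited, so every peak was used. The deposited lists are longer than the sets of binding sites that the study describes, so the counts and shares here cover more peaks than the study kept. Whether replicates were pooled before calling is not given. Duplicate removal and control subtraction decide which sites can appear, and an unknown depth limits weak sites.

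The submitters' notes name hg19, and 0 peaks passed a GRCh37 chromosome end. GENCODE release 44 mapped to GRCh37 supplied genes, and its canonical transcript numbered the introns. Positions are 1-based. Peaks were assigned to a gene when they overlapped its body or the 20 kb on each side by at least 1 bp, and to a promoter when within 1 kb of a transcript start. No test was run, since no value per replicate exists. Intervals are 95% Wilson (shares) or exact Poisson (densities). Named genes were all 10 members and, of 45 other actomyosin genes, the 3 with the highest-scoring peak in each list. Sequences of 181 bases were centred on a motif near the midpoint of the highest-scoring shared and the promoter peaks, or else on the midpoint. Those that show a finding and hold no UTR base are printed, and the sequences of the highest-scoring list-only peaks are not reported here. The 10 genes, the 45 genes and the motifs were chosen with earlier results of these data known. Overlap and motif code was tested on simulated data. The tools were pysam 0.24.0, pandas 2.3.3, numpy 2.4.6, matplotlib 3.10.9 and scipy 1.17.1 under Python 3.11.15. Alternatives changed the score minimum, flanks, overlap, promoter and motif window.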

Additional observations from a re-analysis of the deposited data

How the results depend on the processing

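No paired analysis was possible because the peaks of a construct come as 1 list without values for single replicates. For the same reason no replicate could be left out. The other alternatives set aside peaks by score, width of window, overlap rule or promoter rule. With a score of at least 5, the minimum named in the study's methods, 2 iBRG1 and 10 i∆HSA peaks were left at the 10 genes, 1 peak of each list was shared (the second ACTN4 site in intron 1), no gene had an iBRG1 promoter peak (0), and 0 i∆HSA peaks had an AP-1 match. With 50 kb on each side there were 39 i∆HSA peaks, and 7 iBRG1 peaks were shared. In the gene bodies alone, 2 i∆HSA peaks were shared, since the MYH9 and AGBL3 peaks lie outside. With 250 bp on each side of the midpoint, AP-1 was at 2 iBRG1 and 3 i∆HSA peaks. The other 29 values were within 1.5 times the reported count. Depth is unknown, so a peak missing from a list may lie below detection. Leaving out peaks under 30% GC, an alternative chosen after seeing the data, gave 18 iBRG1 and 21 i∆HSA peaks.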
